A study of Mus musculus with 2 samples.

Results

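Complement is a cascade of blood and tissue proteins that tags and lyses cells and debris, and it was followed here through 9 genes: the proteases C1ra and C1s1, the central component C3, C4b, the protease Cfb, and the regulators Cfi, Clu, Cd55 and Cd59a. Members were the probe sets whose platform gene symbol, or its current form, was 1 of these names, and the brightest probe set stood for each gene. Values were obtained for 7 of the 9 members, out of 12393 genes on the array. C3 was not analysed here. The probe set annotated to C4b also carries C4a, so no value was given to C4b.

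The study compared epithelial cells of the uterus, collected early on pregnancy day 4, between a control genotype and a Stat3 knockout genotype. STAT3 is the transcription factor that carries signals of the leukaemia inhibitory factor and interleukin 6 family to the nucleus. Each genotype was read by 1 array, hybridised with pooled total RNA (the design text gives n = 3 for each, undefined). The sample titles name Stat3 flox control mice for both samples, and the genotype label separates them. No source used here gives the driver of the deletion or the strain and age of the mice. Epithelium was freed from the uterus with trypsin, with no sorting step in the labels.

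Complement starts along a classical route, in which C1q binds a surface and activates the proteases C1r and C1s, along a lectin route, and along an alternative route that factor B amplifies. All of them meet at C3 and end in a pore that contains C9. Host cells are protected by factor I, which cleaves C3b and C4b, by CD55, which takes C3 convertases apart, by CD59, which blocks the pore, and by fluid-phase proteins such as C1 inhibitor and clusterin. In the uterus the epithelium makes complement proteins itself, and C3 is known as an oestrogen-responsive product of rodent uterine epithelium.

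Signals are those of the MAS5 method, linear measures of how brightly an Affymetrix probe set bound labelled RNA, and had been scaled to a common level on both arrays. A floor was set at the 40th percentile of all signals (14.0), and log2 ratios are knockout over control, taken above it. With 1 array per group there is no test and no error across animals. The number of arrays limits the precision, and genes were counted at a 2-fold difference as a description of size. The disagreement between probe sets of the same gene (SD of 0.28 in the log2 ratio, 2853 genes) is the only error measured, and it covers neither animals nor arrays. Since the RNA came from pooled tissue, fewer cells of a type and less RNA per cell cannot be told apart.

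The arrays had equal trimmed means (150.1) and medians of 32.1 (control) and 30.7 (knockout). Stat3 itself had signals of 582 and 186 in its brightest probe set, 3.12-fold lower in the knockout; whether this probe set lies in the deleted part is not known here. All 10 epithelial markers were over the floor on both arrays, with 8 within 2-fold, Cldn4 2.09-fold higher and Krt7 3.46-fold lower in the knockout. All 8 neutrophil markers were under the floor on both arrays, where 4089 of 12393 genes were.

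The members differed in direction. The C1 proteases C1ra and C1s1 were higher in the knockout, the regulators Cfi and Clu were lower, Cfb and Cd59a lay next to the 2-fold limit in opposite directions, and Cd55 had nearly equal signals. At 2-fold, 2 of 7 members were higher, where 7.37% of the 8304 genes with a ratio were, and 2 of 7 were lower, where 9.92% were. The median log2 ratio of the members was -0.03, against 0.05 over all genes with a ratio. With 7 genes and no replicate array these counts describe the members and do not set them apart from other genes.

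**Figure D1:**
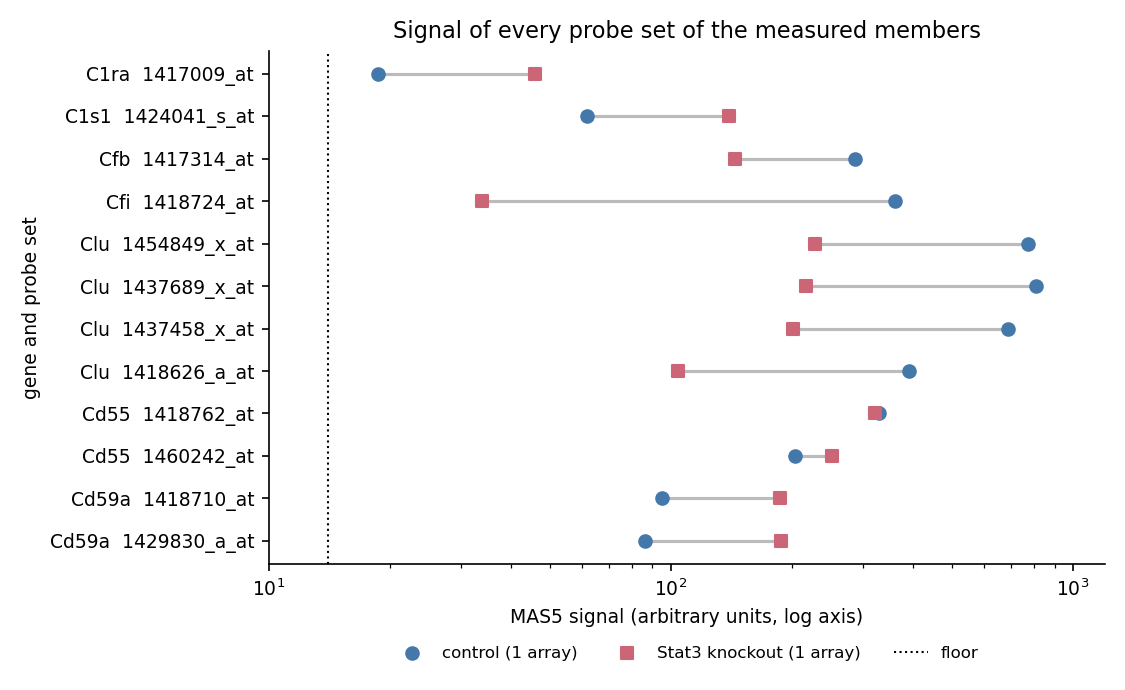
MAS5 signal (arbitrary units, log axis) of each of the probe sets of the 7 measured members, 1 row per probe set, in the control array (circles) and the Stat3 knockout array (squares), with the floor of 14.0 as a dotted line. Cfi spans the widest gap, from 360.2 in the control to 33.9 in the knockout, and the 4 Clu probe sets shift in parallel.

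C1ra and C1s1 lie next to each other in the RefSeq gene order and are read from opposite strands. Their upstream sequences are shown because these neighbours were higher together, and that of Cd59a because it holds 1 of the motifs searched. The sequences come from RefSeq (GRCm38.p6), 5′ to 3′ on the strand of the gene, and end where the annotated gene begins. They lie at chr6:124512371-124512620 (plus strand) for C1ra, chr6:124542393-124542609 (minus strand) for C1s1 and chr2:104095551-104095752 (plus strand) for Cd59a. Capitals mark the match in Cd59a.
C1ra: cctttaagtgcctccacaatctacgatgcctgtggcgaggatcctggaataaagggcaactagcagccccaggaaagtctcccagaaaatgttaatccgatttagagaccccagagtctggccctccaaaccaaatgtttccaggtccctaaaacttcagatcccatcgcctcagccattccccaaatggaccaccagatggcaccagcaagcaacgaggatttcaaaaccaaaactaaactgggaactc
C1s1: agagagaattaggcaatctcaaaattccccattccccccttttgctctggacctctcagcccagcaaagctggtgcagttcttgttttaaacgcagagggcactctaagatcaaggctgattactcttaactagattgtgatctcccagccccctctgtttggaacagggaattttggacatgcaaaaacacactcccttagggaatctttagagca
Cd59a: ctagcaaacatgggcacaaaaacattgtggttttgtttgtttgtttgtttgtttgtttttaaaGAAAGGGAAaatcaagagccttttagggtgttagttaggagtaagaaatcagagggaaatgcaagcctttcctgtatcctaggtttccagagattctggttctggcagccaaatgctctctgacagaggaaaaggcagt

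The motifs searched on both strands were the STAT site TTCNNNGAA, the interferon response core GAAANNGAA and the NF-kappa-B site GGGANTTTC, in windows of 250 bases before to 50 bases after each start. RefSeq entries matched C1ra, C1s1, C3, Cd55 and Cd59a, 5 of the 9 members, while C4b, Cfb, Cfi and Clu were unmatched. The Cd59a window held 1 interferon response core, which 8.56% of 32851 RefSeq windows hold. The C1ra window held 1 STAT site, just inside the transcript at chr6:124512648-124512666 and read as cttcaTTCCCTGAAacatt with the site in capitals; 8.30% of all windows hold one. Neither match overlapped another motif, the C1s1, C3 and Cd55 windows held none of the 3 motifs, and 1.11% of all windows hold the NF-kappa-B letters. A match is a stretch of letters and was not tested as a site.

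C1ra (gene ID 50909), which encodes the protease that starts the classical cascade inside the C1 complex, read 18.7 in the control array and 45.9 in the Stat3 knockout array. The latter was 2.46-fold higher (log2 ratio 1.30), and 298 of the 8304 genes (3.59%) had a ratio at least as high. The control signal stood close to the floor of 14.0, so this ratio depends on how low signals are handled: adding the floor value to each signal gave a log2 ratio of 0.87, short of 2-fold, and with the floor at the 60th percentile the gene had no ratio.

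C1s1 (gene ID 50908), which encodes the protease that C1r activates and that cleaves C4 and C2, had signals of 61.7 and 139.8. It was 2.26-fold higher in the knockout (log2 ratio 1.18), a size reached by 403 genes (4.85%). Its only probe set is of a kind that can read several transcripts. Both C1 proteases thus had more signal in the knockout array.

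The other classical pathway genes had ratios above 0 as well. C1qa, a chain of the recognition protein C1q, had signals of 33.2 and 67.4, or 2.03-fold higher in the knockout (log2 ratio 1.02). It stood just past the 2-fold limit. C1qb and C1qc, the remaining chains, are given to complete the protein although they fell outside the naming rule, with signals of 56.8 and 65.8 and of 21.8 and 35.0. The brightest C1qb probe set had a log2 ratio of 0.21 and its others 0.60 and 0.81. C2, the protease that C1s activates, had signals of 81.5 and 134.5 (log2 ratio 0.72). In all, 3 of the 6 classical pathway genes with a value passed 2-fold upwards and 0 downwards, beside 7.37% and 9.92% of all genes. Their median log2 ratio was 0.87, against 0.05 over all genes, where 4431 of 8304 ratios were above 0.

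Markers of macrophages, C1q chains aside, and of stroma mostly had ratios above 0 as well, without passing 2-fold. Of the 9 macrophage and dendritic cell markers that are not C1q chains, 7 had a ratio, 6 of these were above 0 and 0 were past 2-fold, with a median log2 ratio of 0.69; their summed signal was 596 in control RNA and 879.8 in knockout RNA, and Mrc1 and Itgax were under the floor on both arrays. Lyz2, the lysozyme of macrophages, had signals of 154 and 296, while Cd68, a lysosomal protein of the same cells, had 81.1 and 44.4. Of the 9 stromal markers 8 had a ratio, 7 of them above 0 and 0 past 2-fold, with a median of 0.31 and summed signals of 2589 and 3566; Hand2 was under the floor on both arrays. Endothelial, smooth muscle and lymphocyte markers had 2 genes each over the floor on at least 1 array, with medians of -0.20, -0.36 and 0.30. Among these, 1 endothelial and 1 lymphocyte ratio is a bound. Of 6 uterine gland markers 5 had a ratio, 1 past 2-fold upwards and 0 downwards, with a median of 0.12. Spink1 read 14.2 in the control, just over the floor, and 155 in the knockout. Foxa2 (log2 ratio 0.12) and Ltf (-0.26) were within 2-fold, and the Cxcl15 and Prss29 ratios are bounds. Over all genes with a ratio, 4431 of 8304 were above 0, with a median of 0.05, and 7.37% passed 2-fold upwards and 9.92% downwards. The part of these cell types in the C1q, C1ra and C1s1 signals was not tested.

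Cfb (gene ID 14962), which encodes factor B, the protease of the alternative pathway convertase, went the other way. It read 288 in control RNA and 144 in knockout RNA, which left 50.2% of the control signal. The 1.99-fold difference (log2 ratio -0.99) stood just short of the 2-fold limit, and 834 genes (10.04%) had a ratio at least as low. Under loess scaling the ratio was -1.04 and passed the limit. Cfp, which encodes properdin, the stabiliser of the alternative convertase, reached 14.5 in the knockout and was under the floor in control RNA.

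The pore-forming terminal pathway was represented by C9 alone, with signals of 41.2 and 107.5, or 2.61-fold higher in the knockout in its only probe set. The other 5 terminal genes on the array (Hc, C6, C8a, C8b and C8g) were under the floor on both arrays, as were all 5 lectin pathway genes (Masp1, Masp2, Mbl1, Mbl2 and Fcna). Over the whole array, 4089 of 12393 genes were under the floor on both arrays. Signal under the floor is not a measure of absence.

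**Figure D2:**
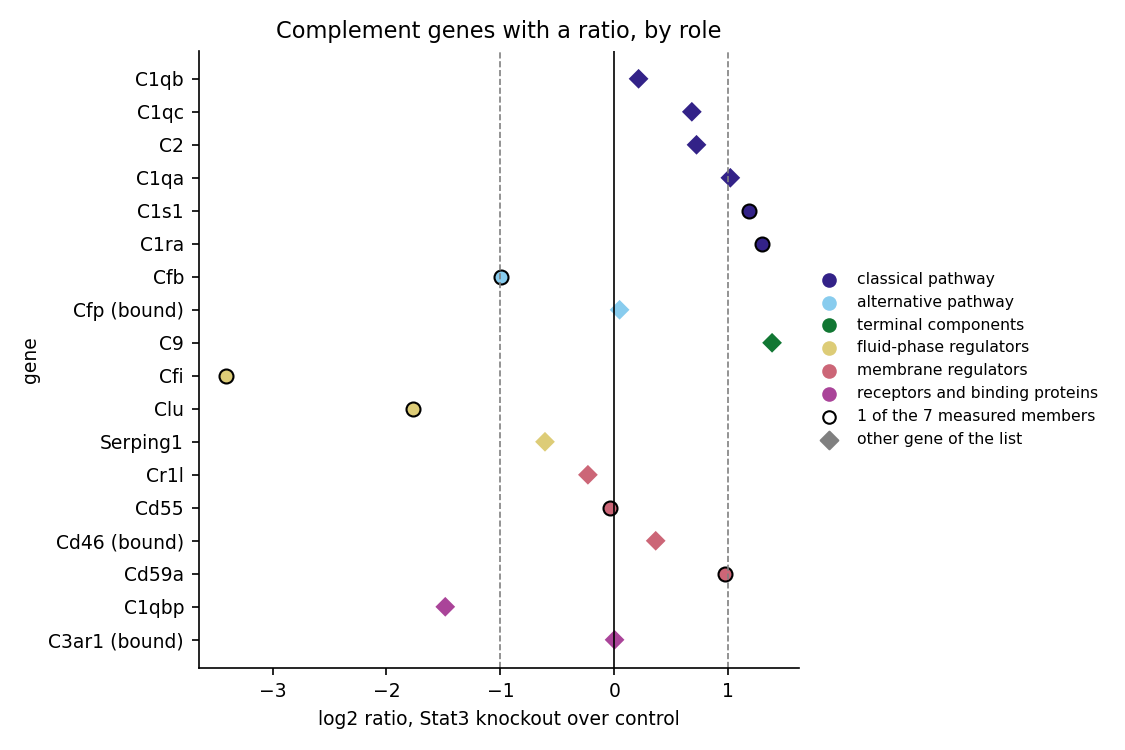
Log2 ratio of knockout over control (horizontal axis) for the 18 genes of the 57-gene complement list that had a ratio, grouped by role; outlined circles are measured members, diamonds are other genes, dashed lines mark 2-fold, and "bound" means that the control was under the floor. The 6 classical pathway genes lie above 0, between 0.21 and 1.30, and the 3 fluid-phase regulators below it, between -3.41 and -0.61.

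Cfi and Clu, both fluid-phase regulators, had the lowest ratios of the complement list. Cfi (gene ID 12630) encodes factor I, the serine protease that cuts C3b and C4b with the help of cofactors. It read 360.2 in control RNA and 33.9 in knockout RNA, which left 9.41% of the control signal. The knockout was 10.6-fold lower (log2 ratio -3.41), and 62 of the 8304 genes (0.747%) had a ratio at least as low. A single probe set reads this gene. With the floor at the 60th percentile the knockout signal became a bound, and the ratio was then at most -2.49.

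Clu (gene ID 12759) encodes clusterin, a secreted chaperone that also binds the terminal complement complex. Its 4 probe sets had control signals between 391 and 810 and knockout signals between 104 and 228. The brightest by mean log2 signal, 1454849_x_at, had 775 and 228, or 3.40-fold lower in the knockout (log2 ratio -1.77), with 29.4% of the control signal left. The remaining probe sets were 3.74-fold (1437689_x_at), 3.42-fold (1437458_x_at) and 3.76-fold (1418626_a_at) lower. The 4 log2 ratios lay between -1.91 and -1.77, a range narrower than the SD of 0.28 found between probe sets in general, although all 4 are of kinds that can read several transcripts. A ratio as low as that of the brightest was found for 334 genes (4.02%).

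Serping1, which encodes C1 inhibitor, the serpin that inactivates C1r and C1s, had signals of 1032 and 677 (log2 ratio -0.61) and stayed within 2-fold. C4bp, Vtn, Cpn1 and Cpn2 were under the floor on both arrays. Of the 3 fluid-phase regulators with a ratio, 2 were thus past 2-fold downwards and 0 upwards, beside 9.92% and 7.37% of all genes.

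Both membrane regulators among the members were read by 2 probe sets of 1 gene. Cd55 (gene ID 13136), the GPI-anchored protein that speeds the decay of C3 convertases, had signals of 329 and 321 in 1 probe set (log2 ratio -0.03) and of 203 and 252 in the other (0.31). The sign differed between the probe sets, and neither approached 2-fold. It also turned positive under median centring (0.03) and in the mean of its probe sets (0.14).

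Cd59a (gene ID 12509), the GPI-anchored inhibitor of the C9 pore, had signals of 95.1 and 187 in its brightest probe set and of 86.2 and 187 in the other. The first was 1.96-fold higher in the knockout (log2 ratio 0.97) and the second 2.17-fold higher (1.12), so the gene sat on the limit, and 649 genes (7.82%) had a ratio at least as high as 0.97. Under median centring the ratio was 1.04 and in the mean of both probe sets 1.05, each past 2-fold.

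Cr1l, the rodent membrane cofactor protein Crry, had signals of 310.1 and 264 (log2 ratio -0.23). Cd46 reached 18.1 in the knockout and was under the floor in control RNA, and Cd55b, Susd4 and Csmd1 were under it on both arrays. None of the 4 membrane regulators with a ratio was at least 2-fold apart in its brightest probe set. Of all 8304 genes with a ratio, 6868 were likewise within 2-fold. The median log2 ratio of the 4 was 0.16, which includes the Cd46 bound, against 0.05 over all genes.

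Receptors for complement fragments gave little signal in this RNA. Of 9 such genes and binding proteins on the array, 7 were under the floor on both arrays, among them the C5a receptor gene C5ar1 and the integrin genes Itgam, Itgax and Itgb2 of the C3 fragment receptors. Over the whole array, 4089 of 12393 genes were. C3ar1 was at 14.1 in the knockout and under the floor in the control. C1qbp, which encodes a mitochondrial protein that also binds C1q, had signals of 2036 and 728, or 2.80-fold lower in the knockout, and its second probe set was 3.25-fold lower.

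Over the whole complement list of 57 genes, 42 were on the array under a probe set of 1 gene and 18 had a ratio. Of these 18, 4 passed 2-fold upwards (C1ra, C1s1, C1qa and C9) and 3 downwards (Cfi, Clu and C1qbp), with 7.37% and 9.92% of all genes as the background. Under loess scaling, where 17 genes of the list had a ratio, the split was 3 higher and 4 lower. Of all 8294 genes with a ratio under loess, 512 were higher and 916 lower. The median log2 ratio of the list was 0.13, against 0.05 for all genes.

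**Figure D3:**
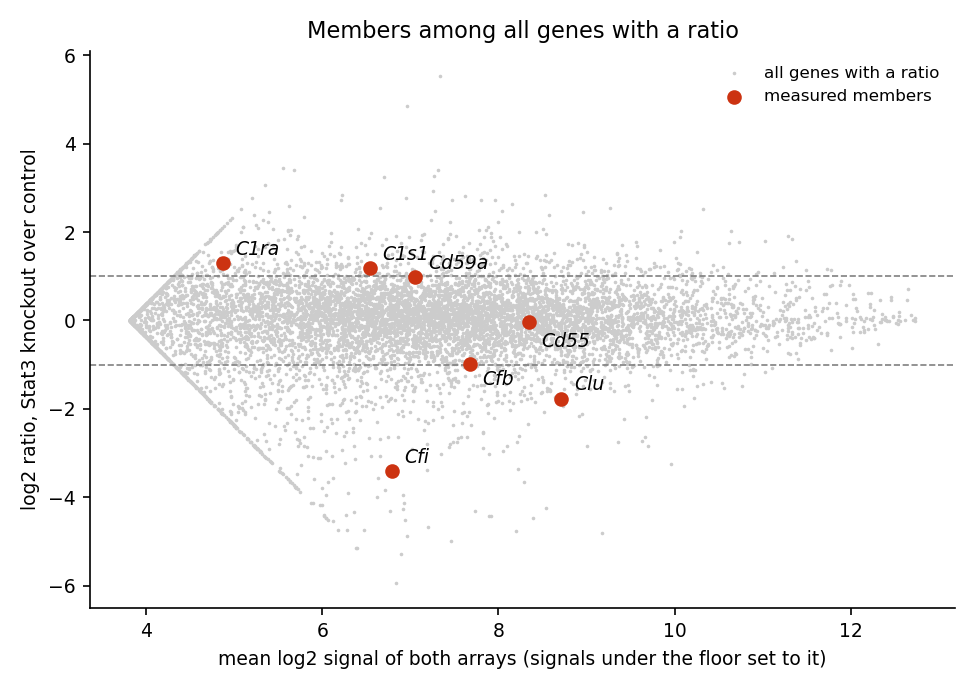
Log2 ratio of knockout over control against the mean log2 signal of both arrays for the 8304 genes with a ratio (grey) and the 7 measured members (red); dashed lines mark 2-fold. Cfi (-3.41) and Clu (-1.77) lie under the main body of genes, Cd55 (-0.03) in its middle, and Cfb (-0.99) and Cd59a (0.97) on the dashed lines.

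Complement genes are known as targets of inflammatory and interferon signals, so the members were set beside lists of such genes. Of 18 interferon-response genes with a ratio, 14 passed 2-fold upwards and 0 downwards, around a median log2 ratio of 1.98; among them were Tap1, the peptide transporter (69.2 and 457), and Irf1, an interferon-induced transcription factor (173 and 391). Of 7 acute phase genes with a ratio, 2 passed 2-fold downwards, Lcn2 (3051 and 109) and Serpina1c (310.2 in the control, under the floor in the knockout), and 0 upwards. The acute phase median was 0.07, with 4 of the 7 ratios above 0, beside 0.05 and 4431 of 8304 for all genes. Over all genes with a ratio, 7.37% passed 2-fold upwards and 9.92% downwards. The lists were chosen with earlier results of these data known, so their counts are a description only. All of these values come from the same pair of arrays, and the difference between lists was not tested.

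The genes nearest to each member past 2-fold, by the Euclidean distance between log2 signals on the 2 arrays, were Slc25a45 and Fez1 for C1ra, Cln3 and Map1s for C1s1, Sting1 and Ect2 for Cfi, and Prdx4 and Fdps for Clu. Sting1, which encodes an adaptor of cytosolic DNA sensing, had signals of 368 and 32.6, at a distance of 0.06 from Cfi. With 2 arrays this likeness rests on 2 values per gene.

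**Figure D4:**
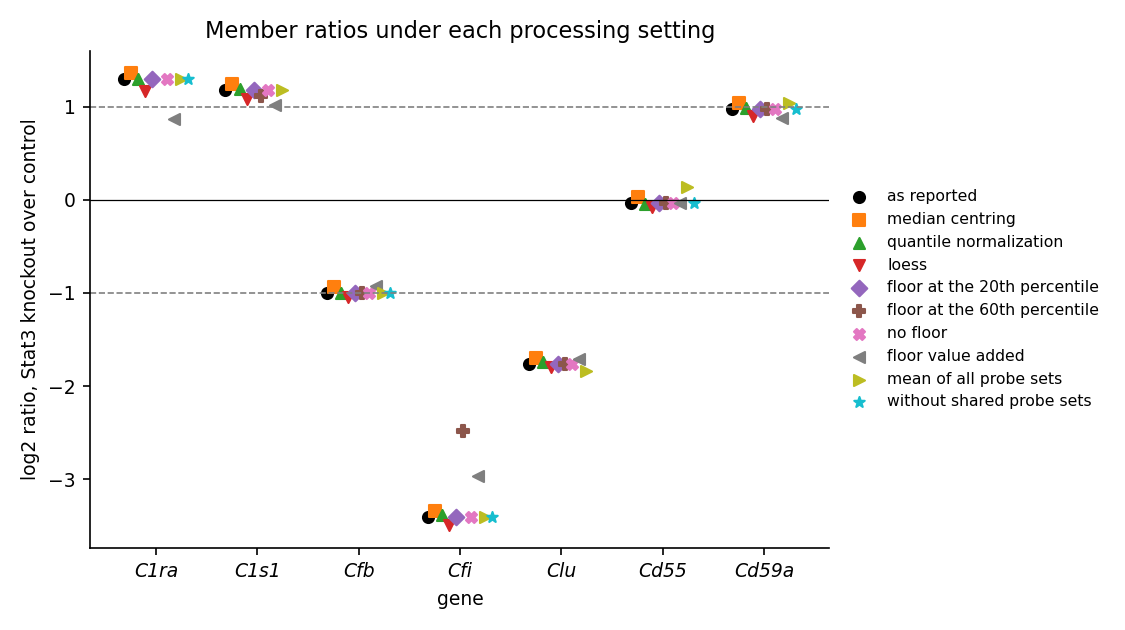
Log2 ratio of knockout over control of each measured member as reported (black circles) and under 9 other processing settings (coloured symbols), with dashed lines at 2-fold. The sign held for every member except Cd55 in the settings that gave a value, Cfi ranged from -3.50 to -2.49, and C1ra, Cfb and Cd59a crossed the 2-fold line in at least 1 setting.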

How the data were processed

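The authors deposited linear intensity values. Their software was Affymetrix Expression Console 1.1 with the MAS5 method, per the submitters' processing notes. Per the labels, 100 ng of total RNA was labelled for the Mouse Genome 430A 2.0 array. No detection call or single-probe value was used, and no source used here gives a hybridisation batch. Of 22626 probe sets that are not controls, 20380 were paired with 1 gene in the platform annotation, 691 with several and 1555 with none; only the first were named, with symbols updated by gene ID (99.9% matched) through RefSeq (GRCm38.p6). Signals under the floor were set to it, with no ratio (4089 genes) where both were. No test was possible. The members and gene lists were chosen with earlier results of these data known. Named were all members, complement genes past 2-fold or among the 10 brightest of their list, the nearest genes and cell type markers; other names are said to fall outside this rule or are counted in their list. The computation, in Python 3.11.15 with statsmodels 0.14.6, was tested on simulated data, with changes larger than 2-fold planted in genes well over the floor. Changes near 2-fold or in genes near the floor were not simulated. Alternatives changed scaling (median, quantile, or loess with a span of 0.3), floor, probe set choice or fold limit.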

Additional observations from a re-analysis of the deposited data

How the results depend on the processing

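Across 9 settings of scaling, floor and probe set choice, the 6 measured members other than Cd55 kept the sign of their ratio wherever a value was obtained. C1ra had no value with the floor at the 60th percentile, and C1s1 and Clu had none without probe sets that can read several transcripts. The floor mattered most for the counts of genes past 2-fold. At the 20th percentile, 7 of 37 genes of the complement list were higher, beside 1094 of all 10943 genes with a ratio. At the 60th percentile, C1s1 alone was higher, as 1 of 6 members and 1 of 13 genes of the list, beside 346 of all 6173 genes. The C1s1 control signal (61.7) was under that floor (64.3), so its log2 ratio of 1.12 is a bound. The median of the members was -0.51 over 6 genes. With no floor, 14 of 42 genes of the list were higher and 10 lower, most of them under the usual floor on at least 1 array. Of all 12393 genes, 1927 were then higher and 1774 lower. With the floor value added, 1 member and 2 genes of the list were higher, beside 429 of all 12393 genes. Without shared probe sets, 1 of 5 members was higher and 1 lower, beside 525 and 650 of all 6675 genes. At 1.5-fold, 7 of 18 genes of the list were higher and 5 lower, beside 1607 and 1541 of all 8304 genes. At 3-fold, 0 members and 0 genes of the list were higher, beside 143 of all 8304 genes. No scaling moved the median of all genes by over 0.1. No paired analysis was possible because each group holds 1 array.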

Other observations

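The 5 protein-coding genes on either side of each member in the RefSeq gene order were read as a description, chosen after the values had been seen. Cfb lies in the class III region of the major histocompatibility complex, and all 10 of its neighbours had a ratio. C2, directly beside it, had a log2 ratio of 0.72, and the other 9 had values between -0.05 and 0.34. Among the latter, the Cyp21a1 value is a bound (at most -0.02). Its signal was 14.2 in the control, just over the floor, and 6.6 in the knockout, under it. Whether Cyp21a1 lies below Cfb (-0.99) is therefore not known. With Cyp21a1 set aside, Cfb had the lowest ratio of the stretch. Around Cfi, 5 of 10 neighbours had a ratio and 3 of these were at least 2-fold lower: Elovl6, a fatty acid elongase (139 and 28.9), Gar1, a nucleolar protein (446 and 166), and Pla2g12a, a secreted phospholipase (122 and 57.2). Around Clu, 5 neighbours had a ratio, 3 past 2-fold upwards and 2 downwards, with Scara3 among the latter as a bound. Around C1ra and C1s1, 1 neighbour each passed 2-fold upwards, which was the other of this pair. Around Cd55 and Cd59a, 1 each passed it downwards, and around Cfb, C3 and C4b 0 did. Over all genes with a ratio, 7.37% passed 2-fold upwards and 9.92% downwards. Whether these stretches differ from other genes was not tested.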
